A study of Drosophila melanogaster with 37 samples.

Results

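The regions described here are stretches of the Drosophila autosomes that were called for MSL3, a subunit of the X-chromosomal dosage compensation complex, in control S2 cells, and that overlapped no CLAMP and no GAF control site. They were found by merging the regions of the 4 control MSL3 lists wherever these shared at least 1 bp and keeping the merged regions called in 2 or more of the lists. Those on the arms 2L, 2R, 3L and 3R were taken, without 3L regions that end at or below position 7000000 of the arm. CLAMP and GAF control sites were formed in the same way from 3 control lists each, which gave 2751 CLAMP and 3219 GAF sites. Of 14324 MSL3 control sites on 6 arms, 11505 (80.3%) met the rule. The remaining sites used for comparison were 469 autosomal sites (3.27%) that did overlap a CLAMP or GAF site, 744 X sites without either factor (5.19%) and 277 X sites with at least 1 of them (1.93%).

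The male-specific lethal (MSL) complex binds the single X chromosome of male flies, acetylates histone H4 there and raises the transcription of X-linked genes. MSL3 carries a chromodomain and is known for spreading of the complex from its entry sites over the bodies of active genes. CLAMP, a protein with zinc fingers, recognises GA-rich elements on all chromosomes, and on the X it brings in the complex. The GAGA factor GAF, encoded by Trl, binds similar GA repeats at many promoters and enhancers.

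S2 cells, a cultured line derived from male embryos, received dsRNA at 4.5 ug/mL. It was directed against GFP, which has no target in these cells and served as control, or against GAF or CLAMP. Chromatin was precipitated with antibodies against MSL3, CLAMP or GAF. Of 37 samples, 25 had a peak list and 12 were inputs. MSL3 lists covered 4 GFP RNAi, 3 GAF RNAi and 3 CLAMP RNAi libraries. CLAMP lists covered 3, 2 and 2 libraries of these treatments and GAF lists 3, 2 and 3. The lists hold regions and no reads, so the depth is unknown. Nothing in the sources used here says whether replicates were separate cultures, and p-values then measure only the spread between libraries, which may be technical.

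The libraries differed widely, and the values that touch the autosomal regions are these. MSL3 lists held 26306, 10572, 668 and 31717 regions in control replicates 1 to 4, then 33316, 22922 and 18519 after GAF RNAi and 984, 103 and 12136 after CLAMP RNAi. Control replicate 3 had 0 regions on 2R. Control replicate 4 stood apart in what it called on the X. It covered 11.7% of the bases of the 277 X sites with a factor, against 90.6%, 84.3% and 28.3% in replicates 1 to 3. The median region at these X sites had a percentile of fold enrichment of 40.8 within the list of replicate 4, but of 99.4, 98.6 and 85.1 in replicates 1 to 3. Replicate 4 nevertheless called 9725 of the 11505 autosomal regions, and without it only 4087 regions met the rule. As a check of the knockdowns, CLAMP lists held 749 and 430 peaks after CLAMP RNAi and 5380, 2178 and 10984 in control cells. GAF lists held 4220 and 18267 peaks after GAF RNAi and 29233, 3543 and 2676 in control cells, so GAF list length overlapped between the treatments.

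The autosomal regions were numerous, narrow and weak. They lay at a density of 128 per Mb, against 33.2 per Mb for X sites without a factor, and took up 18.4% of the bases of the 4 arms. Arm 3R held 4135 of them (148 per Mb), 2L held 3106 (135 per Mb), 2R held 2838 (134 per Mb) and the part of 3L that was used held 1426 (81.3 per Mb). The arms 2L, 2R and 3R thus had similar densities and 3L a lower one. The regions were chosen by their calls in the control MSL3 lists and by the absence of control CLAMP and GAF sites, so these counts and all values of control lists are a description.

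Most of the regions rested on the same pair of control libraries. Exactly 2 lists called 9069 regions (78.8%), 3 lists called 2371 (20.6%) and all 4 lists called 65 (0.565%). Replicates 1 and 4 alone accounted for 6035 regions (52.5%), replicates 1, 2 and 4 for 2283 (19.8%), replicates 1 and 2 for 1735 (15.1%) and replicates 2 and 4 for 1250 (10.9%). Replicate 1 called 88.7% of the regions, replicate 2 called 46.7%, replicate 3 called 1.76% and replicate 4 called 84.5%. The 65 regions called in every control list were spread unevenly, with 40 on 2L, 18 on 3R, 7 on 3L and 0 on 2R, where the list of replicate 3 held no region at all.

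Merging by 1 bp made the regions wider than the stretch on which the lists overlapped. Of 16.4 Mb in the regions, 5.30 Mb (32.2%) lay inside calls of at least 2 control lists. The median stretch shared by 2 lists was 341 bp, or 30.4% of a region, and in 1461 regions (12.7%) it was under 10 percent of the region. A region was usually built from 2 calls (8407 regions, 73.1%) and at most from 13.

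Widths had a median of 1202 bp, with quartiles at 807 and 1797 bp and a full range of 146 to 11031 bp. Autosomal sites with CLAMP or GAF had a median of 1505 bp, X sites without a factor 1467.5 bp, and X sites with a factor 3558 bp. At least 5 kb was reached by 97 of the autosomal regions (0.843%) and by 30.7% of the X sites with a factor. Width grew with the number of lists merged, from a median of 1076 bp in 2 lists to 1835 bp in 3 and 2472 bp in 4. In the plot of cumulative widths the autosomal regions were the narrowest class, and the X sites with a factor lay apart from the other 3 classes.

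**Figure D1:**
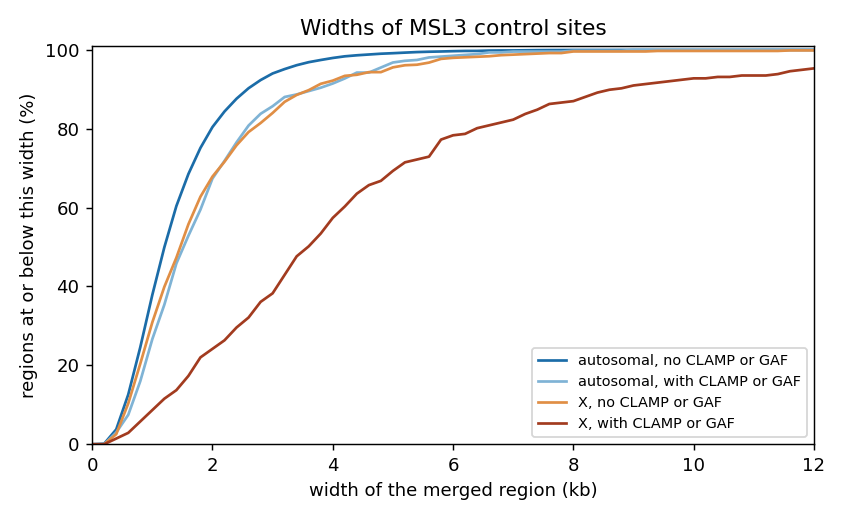
Cumulative widths of MSL3 control sites. The horizontal axis is the width of the merged region in kb and the vertical axis the percentage of sites at or below it; each line is 1 class of sites. The dark blue line of the 11505 autosomal regions (median 1202 bp) rises first, and the dark red line of the X sites with a factor (median 3558 bp) rises last.

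The widest region was 3R 18645098 to 18656128 (dm3, as are all coordinates), which was 11031 bp long and called in all 4 control lists. The next was 2L 21811871 to 21822431, 10561 bp long and called in 3. The other 3 of the 5 widest also lay on 2L, starting at 21953917, 21634020 and 1494889. Fold enrichment of the widest region was 1.49, 1.71, 1.64 and 1.98 in control replicates 1 to 4. Its values thus differed little from those of much narrower regions. It was called in all 3 GAF RNAi lists, at 1.45, 1.89 and 1.83, and in replicate 3 of CLAMP RNAi at 1.35.

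Enrichment in control cells was low in every library. Fold enrichment is the ratio that the authors' peak caller gave each call. Where several calls of a list overlapped a region, the highest fold, −log10 p and −log10 q were taken. Sites that span more calls thus had more values to take the highest from, and the part of width was not tested. Medians of fold enrichment were 1.40, 1.67, 1.59 and 1.85 over the autosomal regions called by replicates 1 to 4. The maxima were 1.86, 2.13, 2.03 and 3.06. The median region had a percentile of 52.2, 49.7, 32.1 and 51.8 within its list, which is near the middle of the list in replicates 1, 2 and 4 and below it in replicate 3. X sites with a factor had median folds of 1.84, 2.25, 2.06 and 1.80. Fold enrichment of the autosomal regions was therefore lower than at those X sites in replicates 1 to 3, and slightly higher in replicate 4. Autosomal sites with a factor had medians of 1.39, 1.69, 1.60 and 1.80, and X sites without one 1.44, 1.77, 1.76 and 1.81. Low fold enrichment was thus shared with the autosomal sites that hold a factor. Regions just outside the rule, called in 1 control list only, numbered 27603 and had medians of 1.39, 1.66, 1.56 and 1.85. Regions just inside, called in 2 lists, had 1.40, 1.67, 1.55 and 1.85. The rule therefore divides regions of nearly equal strength.

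Statistical support of the calls was as low. The highest −log10 p of any autosomal region in a control list was 4.26. A q under 0.05 was reached by 0 of the 11505 regions in any control list, beside 0.97% of all MSL3 control sites and 132 of the 277 X sites with a factor (47.7%). A −log10 p of at least 2 in at least 1 control list was reached by 974 autosomal regions (8.47%), and a value of at least 3 by 19 (0.165%). The value of 2 was reached by 9.38% of autosomal sites with a factor, 13.6% of X sites without one and 80.1% of X sites with one. When the control lists were first limited to a −log10 p of at least 2 and then merged, 15 autosomal regions without a factor were formed. That is 0.130% of the number without the limit. The same limit gave 1 autosomal site with a factor (0.213%), 14 X sites without one (1.88%) and 142 X sites with one (51.3%). All 15 autosomal regions without a factor came from replicates 1 and 4, and replicates 2 and 3 each kept 1 region on the autosomal arms at that limit. Of the 15, 8 lay on 2L, 2 on 2R, 1 on 3L and 4 on 3R. The strongest in replicate 1 was 2L 11592386 to 11592864, a region of 479 bp with a −log10 p of 2.84 there and 2.42 in replicate 4.

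**Figure D2:**
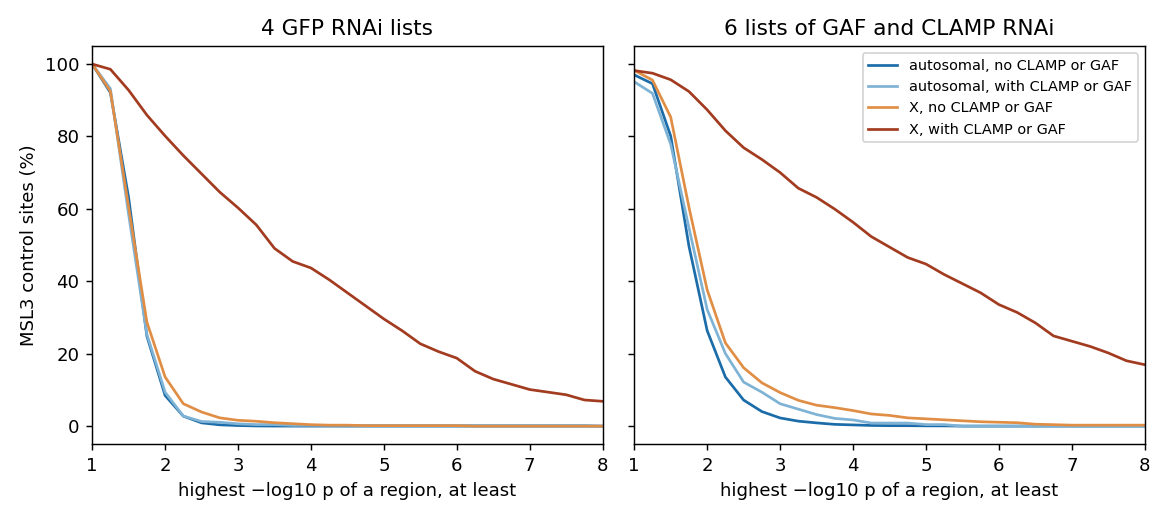
Strength of MSL3 control sites. The horizontal axis is the highest −log10 p of a site over the 4 GFP RNAi lists (left) or the 6 lists of GAF and CLAMP RNAi (right), and the vertical axis the percentage of sites that reach it; each line is 1 class. In the control lists 8.47% of the 11505 autosomal regions (dark blue) reach a value of 2 and 0.165% reach 3, and X sites with a factor (dark red) extend to the right edge.

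The regions that ranked best among those called in all 4 control lists show how small the differences are. Of the 10 best, 8 lay on 2L, 1 on 3R and 1 on 3L. The first was 2L 9471436 to 9473903, 2468 bp long, with folds of 1.43, 1.89, 1.76 and 2.06 in control replicates 1 to 4. After GAF RNAi it was called at 1.45, 1.98 and 1.81, and after CLAMP RNAi in replicate 3 alone, at 1.32. The second, 2L 22450429 to 22453518, had 1.48, 1.78, 1.70 and 1.99 in control cells. It was called in 2 RNAi lists, at 1.55 in replicate 1 of GAF RNAi and at 1.42 in replicate 3 of CLAMP RNAi. The third, 2L 11946057 to 11948860, had control folds of 1.44, 1.71, 1.71 and 2.21. Of these 3 regions none was called in replicates 1 or 2 of CLAMP RNAi, whose lists were the shortest of the RNAi lists.

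The regions lay close to each other. Their distances to CLAMP and GAF were measured to control sites called in 2 lists, which the rule keeps from overlapping a region, and not to peaks of single lists. The median gap to the nearest other autosomal region of the set was 1412 bp, and 95.5% had one within 10000 bp. The median distance to the nearest CLAMP control site was 28825 bp and to the nearest GAF control site 22221 bp. Within 1000 bp lay a CLAMP site for 264 regions (2.29%) and a GAF site for 378 (3.29%). These gaps and distances were not compared with those of other sites. Nor were they compared with those that the density of 128 regions per Mb alone would give. In 87 bins of 1 Mb the number of regions ran from 8 to 221 with a median of 141. The fullest bin was 2L 11000001 to 12000000 with 221 regions, and the emptiest was 3L 13000001 to 14000000 with 8. Of the 5 emptiest bins 4 lay on 3L, and the other was 2L 4000001 to 5000000 with 16 regions. Across the 87 bins the Spearman coefficient of region number with CLAMP site number was −0.03 and with GAF site number −0.02. With the number of autosomal MSL3 sites that hold a factor it was 0.42. With single lists it ran from −0.0138 to 0.487 over the 7 CLAMP lists and from −0.0115 to 0.398 over the 8 GAF lists. It was 0.487 and 0.475 for CLAMP after GAF RNAi, and 0.299 and 0.324 for control CLAMP replicates 1 and 4. For GAF it was 0.258 in control replicate 1 and 0.398 in GAF RNAi replicate 2. Bins share arm, mappability and libraries, and these coefficients describe this genome and carry no test.

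The distribution along the arms was not the same on each. Cut into 4 equal parts from the telomere to the centromere, 2L held 483, 694, 1055 and 874 regions, and 3L, from the 7000000 limit on, held 171, 106, 630 and 519. The 2R parts held 699, 822, 744 and 573 and those of 3R held 931, 1085, 1084 and 1035. By these parts, the numbers were lowest in the telomeric part of 2L and in the telomeric side of the 3L stretch used, and fairly even on 3R. The end of 2L itself was not low. Its bins of 1 Mb held 121, 172 and 118 regions up to 3000000, then 29, 16, 40, 25 and 33 up to 8000000. The next bin held 185. On 3L the bins from 7000001 to 16000000 held 8 to 86 regions, and those from 16000001 to 23000000 held 129 to 178.

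GAF RNAi and CLAMP RNAi were then compared for how many of the regions an MSL3 list called, since the rule did not use these 6 lists. After GAF RNAi 79.6%, 69.2% and 56.2% of the 11505 regions were overlapped in replicates 1 to 3, a mean of 68.3% ± 11.7 (SD, n = 3). After CLAMP RNAi 3.18%, 0.217% and 41.0% were overlapped, a mean of 14.8% ± 22.7 (SD, n = 3). All 3 GAF RNAi libraries lay above all 3 CLAMP RNAi libraries, by 53.5 percentage points in the mean (exact two-sided permutation test, p = 0.1, the smallest that 3 against 3 libraries allow). The design therefore could not pass a threshold of 0.05. The order of the 6 values followed list length, which was 18519 to 33316 regions after GAF RNAi and 103 to 12136 after CLAMP RNAi. When each list was cut to its 103 strongest regions, the difference was −0.139 points (exact permutation test, p = 0.4). At most 103 calls per list then stood against 11505 regions, so a difference near 0 was fixed by the cut and its sign decides nothing. At a −log10 p of at least 2 it was 13.3 points over 15 regions (exact permutation test, p = 0.7). For the 4514 regions with no peak in any control CLAMP or GAF list it was 43.7 points (exact permutation test, p = 0.2), and the treatments no longer separated completely.

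Bases gave the same order. MSL3 calls covered 42.4%, 41.6% and 30.0% of the bases of the regions after GAF RNAi, and 1.43%, 0.135% and 20.9% after CLAMP RNAi. The means were 38.0% ± 6.98 and 7.495% ± 11.6 (SD, n = 3 each), a difference of 30.5 points (exact permutation test, p = 0.1, again the smallest possible). At equal list length the difference was −0.134 points (exact permutation test, p = 0.2), again held near 0 by the cut. At a −log10 p of at least 2 the difference was 4.36 points (exact permutation test, p = 0.7). For regions with no control factor peak it was 23.8 points (exact permutation test, p = 0.2).

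The 11505 regions were covered more than the rest of the same arms in every MSL3 library after RNAi. The remaining bases of the 4 arms were covered to 23.9%, 23.3% and 17.2% after GAF RNAi and to 0.360%, 0.0107% and 10.3% after CLAMP RNAi. The regions exceeded them by 10.2 points in the mean, in 6 of 6 libraries (exact sign-flip permutation test, p = 0.0313, the smallest that 6 libraries allow, and 0.156 after Benjamini-Hochberg adjustment over 5 contrasts). This contrast was added after the data had been seen. Regions called in 1 control list only, part of the rest, were covered to 32.6%, 31.1% and 23.2% after GAF RNAi. After CLAMP RNAi they were covered to 0.552%, 0.00804% and 14.6%. They thus also lay above the rest, except in CLAMP RNAi replicate 2. The rest includes bases that no control list called, whereas the regions were chosen as called. The part of this choice in the excess was not tested. For the 4514 regions with no peak in any control CLAMP or GAF list the excess was 6.33 points (exact permutation p = 0.156, adjusted 0.625), so the libraries no longer all had the same sign. At a −log10 p of at least 2, with 15 regions, it was 3.59 points (exact permutation p = 0.25), and at equal list length 0.148 points (exact permutation p = 0.0625). The cut to equal length holds this last value near 0. Relative to all bases of the arms, coverage of the regions was 1.55, 1.56 and 1.53 times as high after GAF RNAi and 2.57, 4.03 and 1.71 times after CLAMP RNAi. The shortest lists thus had the highest ratios. A list that covers more of an arm leaves less room for a high ratio, and these ratios were not tested.

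**Figure D3:**
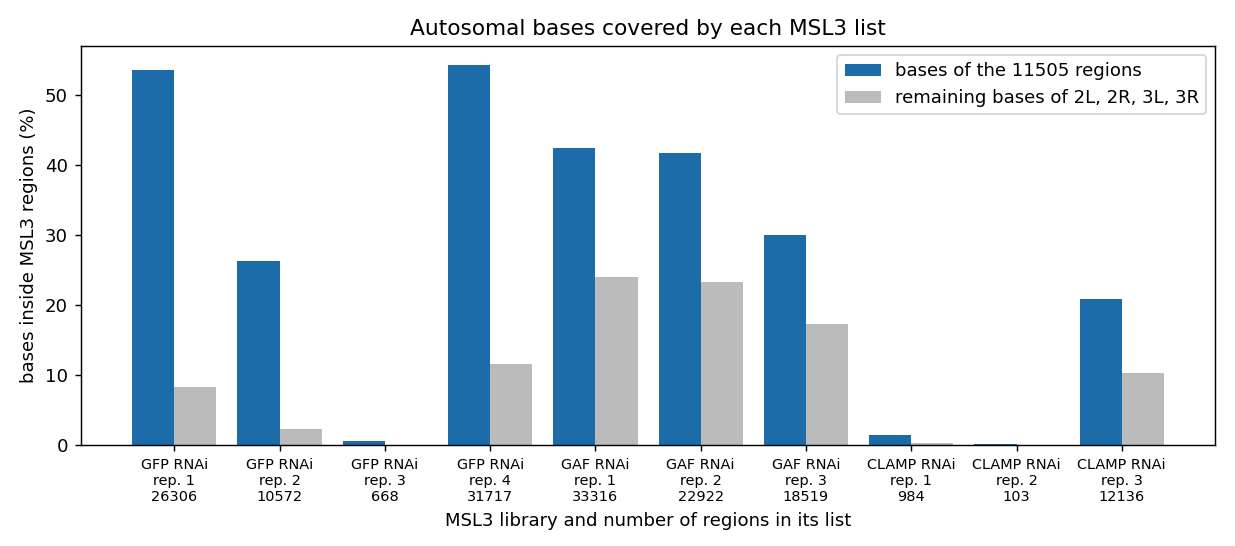
Autosomal bases inside the regions of each MSL3 list. The vertical axis is the percentage of bases, for the bases of the 11505 regions (blue) and for the remaining bases of the 4 arms (grey); under each library stands the number of regions in its list. The GFP RNAi lists chose the regions and are shown as a description; in the 6 RNAi lists the blue bar runs from 0.135% to 42.4% and is above the grey one.

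Counted over libraries of a treatment, 8886 regions (77.2%) were called in 2 or more of the 3 GAF RNAi lists, and so were 77.5% of all 14324 MSL3 control sites. In 2 or more of the CLAMP RNAi lists 220 regions (1.91%) were called, beside 2.43% of all sites. That share was 3.54% without control replicate 1 and 2.89% without control replicate 4. All 3 GAF RNAi lists called 3744 regions (32.5%, beside 33.3%), and all 3 CLAMP RNAi lists called 12 (0.104%, beside 0.237%). The autosomal regions make up most of the sites counted, and each of these shares lay near or below that of all sites. No RNAi list called 345 regions (3.00%, beside 2.95%), 3 of the 6 lists called 4042 (35.1%) and all 6 called 10 (0.0869%, beside 0.202%). All 3 GAF RNAi lists and no CLAMP RNAi list called 1962 regions (17.1%, beside 16.5%), and 0 regions showed the converse, beside 0%. Called in all 4 control lists but in no CLAMP RNAi list were 12 regions (0.104%, beside 0.391%), and in no GAF RNAi list 0 (beside 0%).

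The 10 regions called in every RNAi list lay in a few places on the arms, and these calls were weak. At a −log10 p of at least 2 each was called in 1 or 2 RNAi lists, and with an overlap of 50% of the shorter region 2R 1352019 to 1354341 was called in 4. Of these, 5 lay within 2L 8403757 to 8448800, 4 on 2R between 1352019 and 1654329, and 1 on 3L at 17274225 to 17276326. The region 2L 8403757 to 8407950 had folds of 1.36, 1.86 and 1.93 after GAF RNAi and 1.98, 1.80 and 1.495 after CLAMP RNAi. In control cells the same region was called in all 4 lists at 1.38, 1.91, 1.57 and 1.97, so its folds overlapped between the 3 treatments. The 2R region 1648485 to 1654329 had 1.27, 1.97 and 1.84 after GAF RNAi and 1.81, 1.97 and 1.505 after CLAMP RNAi. Neighbouring regions were not independent, because a single broad call of an RNAi library can span several of them. The 2L regions starting at 8434248 and 8440423 shared the same fold of 1.79 in CLAMP RNAi replicate 1 and of 1.44 in replicate 3.

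Regions called in all 3 GAF RNAi and no CLAMP RNAi list included 3R 21726682 to 21727425. It had folds of 1.49, 2.20 and 2.47 after GAF RNAi, and in control cells it was called by replicates 2, 3 and 4 at 1.61, 1.498 and 1.69. The others of the 5 best-ranked of this kind also lay on 3R, starting at 16678503, 16668194, 4611197 and 14031427, and the first 2 of these were neighbours. Among regions called in all control lists and in no CLAMP RNAi list was 3R 8229423 to 8229669, 247 bp long. Its control folds were 1.302, 2.13, 1.85 and 1.71, and after GAF RNAi it was called at 1.46, 1.68 and 2.54.

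A q under 0.05 in any RNAi list was reached by 99 regions (0.860%), beside 2.57% of all sites and 177 of the 277 X sites with a factor (63.9%). Of the 99, 90 had their best value in replicate 2 of GAF RNAi and the other 9 in replicate 1, and 0 reached the limit in more than 1 list. On 2L lay 70 of them, 11 on 2R, 7 on 3L and 11 on 3R. Their median width was 1641 bp, and 40 had been called in at least 3 control lists. A CLAMP peak of at least 1 of the 7 CLAMP lists lay in 87 of them (87.9%) and a GAF peak of at least 1 of the 8 GAF lists in 84 (84.8%), against 28.8% and 65.6% of all 11505 regions. No test was made of these shares. Neighbouring regions could share 1 broad call: replicate 2 of GAF RNAi had 77 calls under that q in its 90 regions. The 2L regions starting at 1410535, 1412774 and 1417007 all had a fold of 2.11 and a −log10 q of 1.41 there. The counts by arm and the shares are thus of regions, not of separate calls. The strongest of the 99 regions was 3R 19357919 to 19360498 with a fold of 2.94 and a −log10 q of 5.39 in replicate 2 of GAF RNAi. The second was 3R 6446127 to 6446731 with a fold of 1.84 and a −log10 q of 3.08 in replicate 1. Both regions were singled out after their values were seen.

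Against other MSL3 sites, recovery of the autosomal regions did not differ in a direction shared by the 6 libraries with the lists as deposited. With each list cut to 103 regions, recovery of the autosomal regions differed by −0.585 points from that of X sites without a factor. From autosomal sites with one it differed by −0.432 points, and in bases the differences were −0.590 and −0.323 points (exact permutation p = 0.0625 each, adjusted 0.0625). At most 103 calls per list stood against 11505 regions, so such values lie near 0 by construction. The regions were also the narrowest class, and the part of width was not tested. With the full lists, compared with X sites without a factor, recovery of the autosomal regions was −12.3, 13.5 and 10.5 points apart in GAF RNAi replicates 1 to 3 and −1.25, −0.320 and −5.65 points in CLAMP RNAi replicates 1 to 3, where a positive value means higher on autosomes. The mean was 0.730 points ± 9.73 (SD, n = 6, exact sign-flip permutation test, p = 0.938, adjusted over 4 contrasts 0.938). Coverage of bases differed by −5.26 points ± 13.9 (SD, n = 6, exact permutation p = 0.563, adjusted 0.75). The value of GAF RNAi replicate 1 stood out, since that library covered 74.4% of the bases of the X sites and 42.4% of the autosomal ones. Without that library the difference in bases was 0.0903 points and its direction turned. Without control replicate 1 it was −9.23 points and without control replicate 4 −2.39 points. The difference in recovery turned to −4.68 points when control replicate 1 was left out and to −1.22 points when control replicate 2 was. Leaving out GAF RNAi replicate 2 gave −1.81 points, and leaving out replicate 3 of that treatment gave −1.22 points. It was 2.91 points without control replicate 4, 3.34 without GAF RNAi replicate 1, 1.13 without CLAMP RNAi replicate 1 and 2.01 without CLAMP RNAi replicate 3.

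Compared with the 469 autosomal sites that hold CLAMP or GAF, the regions without them were recovered more often by 2.83, 11.2 and −0.0970 points after GAF RNAi and by −3.22, −0.636 and 6.66 points after CLAMP RNAi. The mean was 2.80 points ± 5.34 (SD, n = 6, exact permutation p = 0.375, adjusted 0.75). For bases it was 2.37 points ± 4.16 (SD, n = 6, exact permutation p = 0.344, adjusted 0.75), positive in 4 of 6 libraries. Without control replicate 4 these means were −1.21 and −0.200 points, so both directions rested on that library. The 469 sites were wider, with a median of 1505 against 1202 bp, and the part of width in these values was not tested. In these contrasts the difference between GAF RNAi and CLAMP RNAi gave exact permutation p values of 0.2 to 1.

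**Figure D4:**
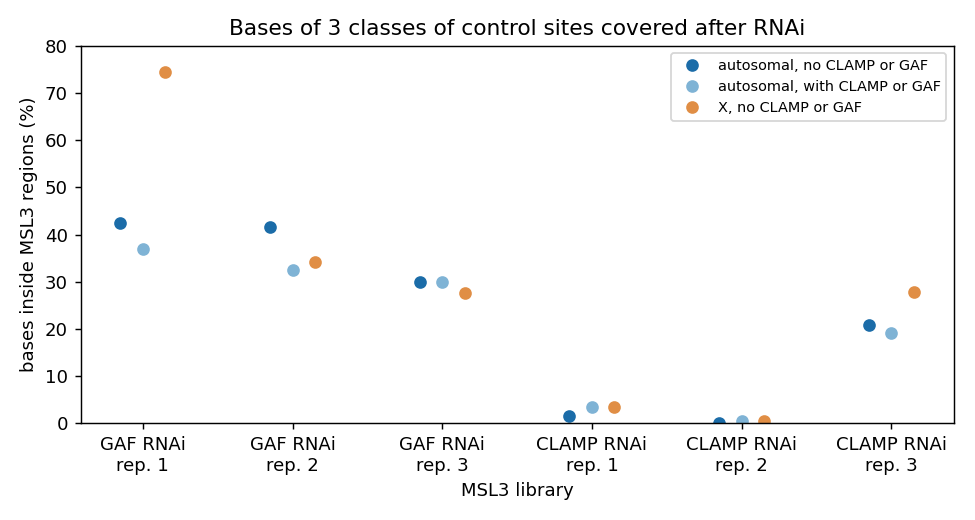
Bases of 3 classes of MSL3 control sites covered after RNAi. The horizontal axis lists the 6 MSL3 libraries of GAF and CLAMP RNAi, the vertical axis is the percentage of bases inside MSL3 regions, and each point is 1 class in 1 library. The 11505 autosomal regions (dark blue) lie within 10 points of both other classes except in GAF RNAi replicate 1, where X sites without a factor (orange) reach 74.4% against 42.4%.

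Recovery varied among the regions with the control lists that had called them. In GAF RNAi the mean recovery was 64.6% ± 13.1 for regions of 2 control lists, 81.8% ± 6.94 for those of 3 and 92.3% ± 5.55 for those of 4 (SD, n = 3). The same held for covered bases, at 35.5%, 43.3% and 49.7%. Recovery also went with width, from 56.8% in the lowest quartile of width (median 598 bp) to 80.5% in the highest (median 2394 bp), while covered bases were 39.8% and 37.8%. In GAF RNAi width therefore went with overlap by 1 bp, and little with the share of bases covered. In CLAMP RNAi replicates 1 to 3 covered bases were 0.636%, 0.0254% and 18.2% in the lowest quartile. In the highest quartile they were 1.92%, 0.224% and 22.7%.

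The pair of control lists behind a region went with which RNAi library recovered it. Regions of control lists 1 and 4 only were called by GAF RNAi replicate 3 in 38.7% of cases and by CLAMP RNAi replicate 3 in 44.7%. Regions of lists 2 and 4 only were called in 79.2% and 20.6%, the opposite order. Between GAF RNAi replicates 1 and 2 the order was the same for both subsets, at 76.8% and 67.3% for lists 1 and 4 and at 70.6% and 57.4% for lists 2 and 4. The 2 RNAi libraries also parted over single regions. Of the 6465 regions called by GAF RNAi replicate 3, CLAMP RNAi replicate 3 called 34.6%, and of the remaining regions it called 49.2%. Between CLAMP RNAi replicate 3 and GAF RNAi replicates 1 and 2 the sign was the opposite, at 44.1% against 28.7% and at 46.8% against 27.9%. The regions called by CLAMP RNAi replicate 3 thus overlapped more with those of GAF RNAi replicates 1 and 2 than with those of GAF RNAi replicate 3. These 3 pairs cross the treatments. Within GAF RNAi, replicate 3 called 55.1% of the regions called by replicate 2 and 58.7% of the rest. Of the regions called by GAF RNAi replicate 1, replicate 2 called 72.9% against 54.9% of the rest, and replicate 3 called 58.0% against 49.1%. None of these shares carries a test.

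By arm, in GAF RNAi mean recovery was 70.1% on 2L, 66.8% on 2R, 65.1% on 3L and 69.2% on 3R, each with an SD over 3 libraries of 8.20 to 15.3. In CLAMP RNAi replicate 3 it was 51.9% on 2L, 33.3% on 2R, 40.6% on 3L and 38.2% on 3R. The spread between arms within GAF RNAi was smaller than that between its libraries. In CLAMP RNAi replicate 1 recovery was 5.83% on 2L and 1.91% to 2.57% on the other arms. In replicate 2 it was 0.547% on 2L and 0 to 0.247% on the others. Arm 2L was thus highest in each CLAMP RNAi library. Its regions were also wider, with a median of 1290 bp against 1147.5 to 1189 bp, and the part of width was not tested.

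Single CLAMP and GAF lists, as opposed to control sites called in 2 lists, did hold peaks in the regions. A control site needs 2 lists, so a region of the set can overlap a peak of 1 control list. In control cells the 3 CLAMP lists, replicates 1, 2 and 4, overlapped 5.25%, 0.00869% (1 region) and 15.3% of the regions, and the 3 GAF lists 51.4%, 0.339% and 0.0435%. The list of GAF replicate 1 was also the longest control GAF list, with 29233 peaks against 3543 and 2676 in replicates 2 and 3. Overlapping peaks of 2 control lists of a factor form a control site, which the rule keeps out of the regions. The low shares of GAF replicates 2 and 3 are therefore partly set by the rule. In all, 5927 regions (51.5%) held a GAF peak of at least 1 control list and 2300 (20.0%) a CLAMP peak, and 4514 (39.2%) held neither. No CLAMP or GAF peak in any of the 15 lists of the 3 treatments was found in 2959 regions (25.7%). MSL3 recovery of regions with and without a peak of control GAF replicate 1 differed in size and sign between libraries. After GAF RNAi it was 85.1% with and 73.8% without such a peak in replicate 1, 68.6% and 69.9% in replicate 2, and 74.3% and 37.1% in replicate 3. After CLAMP RNAi it was 3.40% and 2.95%, 0.271% and 0.161%, and 37.5% and 44.7%.

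After GAF RNAi CLAMP peaks overlapped 8.34% and 8.65% of the regions, and after CLAMP RNAi 0.0435% (5 regions) and 0. The count of 0 of 11505 allows a share of up to 0.0261%. The groups differed by 8.47 points (exact permutation test, p = 0.333, the smallest that 2 against 2 libraries allow). GAF peaks overlapped 3.42% and 33.7% after GAF RNAi and 0.235%, 0.217% and 3.65% after CLAMP RNAi, and the values of the treatments overlapped. The difference was 17.2 points (exact permutation test, p = 0.4, with 0.2 the smallest possible), and 2.05 points without GAF RNAi replicate 2 and 32.3 points without GAF RNAi replicate 1. The share of regions overlapped went with the number of peaks in the list, which ran from 430 to 29233. A CLAMP peak in both GAF RNAi lists was found in 313 regions (2.72%, beside 5.51% of all MSL3 control sites). A GAF peak in both GAF RNAi lists was found in 97 (0.843%, beside 2.14%) and one in at least 2 CLAMP RNAi lists in 29 (0.252%, beside 2.24%). The sites with a control CLAMP or GAF site, which the rule left out, are in those backgrounds.

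**Figure D5:**
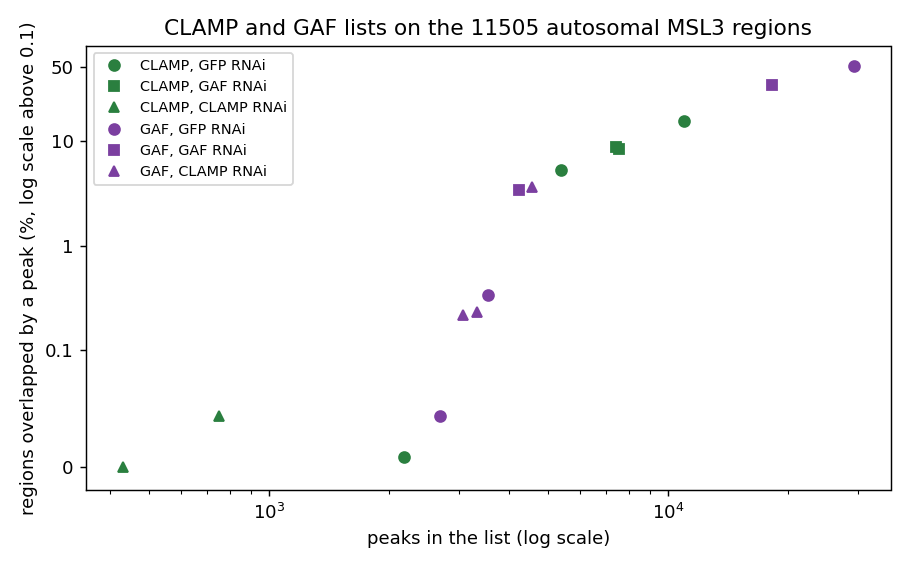
CLAMP and GAF lists on the 11505 autosomal MSL3 regions. The horizontal axis is the number of peaks in a list on a log scale and the vertical axis the percentage of regions a list overlaps, on a log scale above 0.1 and linear below; green is CLAMP, purple is GAF, and the symbol gives the RNAi. Lists of 3543 or fewer peaks overlap at most 0.339% of the regions, and the longest list, of control GAF replicate 1, overlaps 51.4%.

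The peaks in the regions were weaker than those elsewhere in most lists. In control CLAMP replicate 1 the 665 peaks in the regions had a median fold of 1.66, against 2.15 for peaks elsewhere on the 4 arms, and 23.5% against 71.3% reached a q under 0.05. In control GAF replicate 1 the medians were 1.74 and 1.76, and 79.7% and 79.3% reached that q. In GAF RNAi replicate 2, another long GAF list, the medians were 2.24 and 2.30. In control CLAMP replicate 4, the longest CLAMP list, they were 1.83 and 1.88, but 6.68% of its peaks in the regions and 29.4% elsewhere reached a q under 0.05. Median folds inside and outside the regions thus lay close together in the longest lists of both factors. Control lists entered the rule, so their values are a description. The rule also keeps CLAMP and GAF control sites out of the regions, so only peaks elsewhere can lie at those sites, in RNAi lists too. The values of RNAi lists are therefore also a description.

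Few regions held factor peaks in many lists. By the centre of a peak, 3660 regions (31.8%) held none in the 15 lists, 4131 (35.9%) held one in 1 list, and 152 (1.32%) held one in 5 or more. The most was 8 lists, in 3 regions. One of these was 2L 17986394 to 17989419, 3026 bp long, with CLAMP folds of 1.51 and 1.97 in control replicates 1 and 4 and of 1.99 and 2.101 after GAF RNAi. The region 2L 1647766 to 1649074 held a GAF peak in all 3 CLAMP RNAi lists, at 5.22, 5.40 and 6.76, and one of 1.81 in control GAF replicate 1. Its CLAMP folds were 2.98 in control replicate 1 and 2.84 and 1.89 after GAF RNAi, and MSL3 was called at 1.44 and 1.57 in control replicates 1 and 4. Both regions were singled out after their values were seen.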

How the data were processed

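Per the labels' protocols, crosslinked and sonicated chromatin of S2 cells was precipitated and sequenced. Per the submitters' processing notes, reads were processed with Bowtie and MACS2 2.1.1 on dm3. Caller options and the control are not given in the sources used here. The authors called peaks per library. The deposited lists give each region a fold enrichment (a ratio), a −log10 p and a −log10 q, which depend on the unknown depth. In the lists the lowest −log10 p was 1.00 for the broad MSL3 regions and 1.30 for the narrow CLAMP and GAF peaks.

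From these lists, sites and regions were formed by the rule given in the report, with overlap of at least 1 bp. The regions and the comparisons were chosen with earlier results of these data known. Per library, the percentage of regions overlapped and of their bases covered was computed. Between treatments, library values went into exact permutation tests, two-sided, and between classes of sites into exact sign-flip permutation tests over the 6 RNAi libraries, with Benjamini-Hochberg adjustment. A percentage of the 11505 regions has an exact Clopper-Pearson 95% interval of at most 0.917 points to either side, and a count of 0 allows up to 3 counts. Both cover counting error only. Percentiles are ranks within a list of the highest fold enrichment among the calls that overlap a region.

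Regions were named by a rule: the 10 best mean percentiles among regions of all 4 control lists, the 5 widest, the 10 called in most RNAi lists, and up to 5 called in every list of 1 treatment and none of another. From these the text gives examples. Alternatives were a −log10 p of at least 2 in MSL3 lists, 3 or more control lists, an overlap of 50% of the shorter region, no peak in any control CLAMP or GAF list, a −log10 q of at least 5 for those factors, distal 3L kept, lists of equal length, the replicate number as a block, and each library left out in turn.

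No dm3 sequence or annotation was used here, so no genes or sequences are given. Overlap code was checked on simulated data. Computations used Python 3.11.15, numpy 2.4.6, scipy 1.17.1 and matplotlib 3.10.9.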

Additional observations from a re-analysis of the deposited data

How the results depend on the processing

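There were 172 alternative values of the number of regions and the 9 contrasts. Of these, 147 kept direction and call, 20 turned direction and 5 counts moved by over 1.5 times. The call was a p under 0.05, adjusted where an adjustment was made. No contrast passed it with the main settings, and the tests between treatments could not. For contrasts size did not enter: 53.5 against 13.3 points and 10.2 against 0.148 points counted as kept. The 147 are therefore no measure of stability. The number of autosomal regions was 15 at a −log10 p of at least 2, 2436 with 3 or more control lists and 4514 with no peak in any control factor list. It ran from 3274 (without control replicate 1) to 11454 when a library was left out, and was 4087 without control replicate 4. Leaving out a library gave 46.3 to 66.6 points for recovery after GAF against CLAMP RNAi, 26.2 to 41.9 for bases, 6.23 to 10.4 for CLAMP peaks, 2.05 to 32.3 for GAF peaks and 8.17 to 14.97 for the regions against the rest of the arms. With lists of 103 regions each, recovery was −0.139 and bases −0.134 points, by construction with far fewer regions. With CLAMP RNAi replicates 1 and 2 left out, an alternative chosen after seeing the data, they were 27.3 and 17.1 points. The share of regions called in 2 or more GAF RNAi lists ran from 74.3% to 88.0% over left-out control libraries, and that of CLAMP RNAi lists from 1.92% to 3.54%. With 3 or more control lists these shares were 92.0% and 4.93%, with no control factor peak 66.3% and 0.864%, at 50% overlap 61.1% and 1.39%, and at the limit on p 0 and 0 of 15 regions. Of 33 named regions, 6 kept a number of RNAi lists within 1.5 times at the limit on p, where the numbers were 0 to 3.

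The contrast in recovery with X sites without a factor turned to −22.1 points at the limit on p, −2.88 at 50% overlap, −0.0742 with 3 or more control lists, −1.14 with no control factor peak, −0.741 at the limit on q and −0.585 at equal length. That with autosomal sites holding a factor turned to −0.979 with 3 or more control lists, −6.75 with no control factor peak and −0.432 at equal length, and in bases to −3.25 and −0.323 under the last 2 settings. The values at equal length are held near 0 by the cut. The cause of the turns was not tested. Leaving out a library gave −4.68 to 3.34 and −1.21 to 4.00 points for recovery against the X and autosomal classes, and −9.23 to 0.0903 and −0.200 to 3.23 points for bases.

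No source used here says what replicate numbers of GAF and CLAMP RNAi share. Over the 87 bins of 1 Mb, deviations of MSL3 coverage from the mean of the treatment correlated at −0.453, −0.449 and −0.571 between same-numbered libraries and at −0.443 to 0.610 between the others. The 3 deviations of a treatment sum to 0, so these values are not independent, and the numbers were not taken to pair the libraries. With the replicate number as a block, the differences were 53.5 and 30.5 points for recovery and bases (exact permutation p = 0.25 each), 8.47 for CLAMP peaks and 18.3 for GAF peaks (exact permutation p = 0.5 each). Unknown depth and lists of 103 to 33316 regions limit what can be said of regions not called.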
